A study of Mus musculus with 8 samples.

Results

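The 9 genes described here encode subunits of kainate receptors (Grik1, Grik2, Grik3 and Grik5) and metabotropic glutamate receptors (Grm2, Grm3, Grm5, Grm7 and Grm8). They were taken from a list of gene names, not by any measured value, and are 9 of the 18301 genes in the deposited table. Ribosome footprints, the mRNA fragments that ribosomes protect, and total RNA were measured in mouse neurons at day 8 in vitro, differentiated from the embryonic stem cell line CGR8. The cultures were labelled wildtype (WT) or Eif4g1/Eif4g3 double-knockout (DKO), the targeted genes being those of scaffold proteins that help bring ribosomes to capped mRNA. Each genotype gave 2 footprint libraries and 2 RNA libraries, which makes 4 groups. In all groups translation had been stopped with cycloheximide at 100 µg/ml for 5 min. By their labels the 8 libraries stem from 4 cultures, which are the replicates. The labels do not say how the knockout was made, and 3 of the 4 cultures carry a code that may name a clone, WT replicate 1 among them. WT replicate 2 carries the code WT.

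Kainate receptors are glutamate-gated cation channels made of 4 subunits: those encoded by Grik1, Grik2 and Grik3 can form channels by themselves, while the product of Grik5 binds glutamate with high affinity and needs such a partner to reach the surface. Metabotropic receptors are G-protein-coupled. The product of Grm5 (group I) signals through Gq and phospholipase C, whereas those of Grm2 and Grm3 (group II) and of Grm7 and Grm8 (group III) signal through Gi/o and lower cyclic AMP. In the brain, kainate receptors act on both sides of the synapse, Grm2, Grm7 and Grm8 products mostly restrain transmitter release, and Grm3 and Grm5 are made by astrocytes as well as neurons.

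The footprint libraries held 10490535 to 19753419 estimated counts and the RNA libraries 14762047 to 44786643. Summed counts of the 6 pan-neuronal markers were high in every library (3391 to 7177 CPM, which are counts scaled to the library's TMM-adjusted size). The neurons were labelled cortical and glutamatergic, but Slc17a7, a vesicular glutamate transporter of the cortex, had 0 to 4 counts in each library, and Tbr1, a factor of deep cortical layers, had at most 1.05 CPM. The subcortical glutamate transporter gene Slc17a6 stood at 74.3 to 234 CPM over both assays. Slc32a1, the vesicular GABA transporter gene, stood at 46.2 to 61.0 CPM in RNA and at 215 to 248 CPM in footprints. Of the other GABAergic markers, Gad1, Gad2 and Sst stood at 32.1 to 198 CPM over both assays, whereas Dlx1, Dlx2, Dlx5 and Lhx6 had at most 3.64 CPM. Eif4g1 had 300 and 263 CPM in WT and 154 and 287 CPM in DKO footprints, and Eif4g3 had 169 and 153 CPM in WT and 164 and 172 CPM in DKO. Gene sums cannot show whether a part of these genes was removed, so they do not check the genotype labels. In RNA, Eif4g1 reached 288 and 280 CPM for WT, and 125 and 305 CPM for DKO replicates 1 and 2. The genotype label says double-knockout while the series title mentions microexons, and DKO here means only the libraries so labelled. WT replicate 2 stood apart in both assays: its coordinate on the first principal component was 34.7 in footprints against -14 to -9.1 in the others, and 29.3 in RNA against -12.9 to -7.5. Its summed fibroblast and mural markers were also the highest of each assay, at 926 CPM in footprints (others 187 to 579) and 521 CPM in RNA (others 93.2 to 258).

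Several receptors exist in forms that differ at the intracellular end of the protein, and the table assigned counts to such isoforms. The coding stretches that tell the named isoforms apart are shown because the isoform values given later turn on them. They were read from the GENCODE M21 transcripts, run 5′ to 3′ on the coding strand, and have GRCm38 positions. The stretch of Grik1-202 is exon 16 of 17 (87 nt, chr16:87896809-87896895, minus strand) and is absent from Grik1-201. Grik2-201 and Grik2-202 end in different coding sequences of 45 nt (chr10:49105021-49105065, minus strand) and 162 nt (chr10:49101111-49101272, minus strand). Exon 8 of 9 of Grm5-204 (96 nt, chr7:88116193-88116288, plus strand) is absent from Grm5-201. Grm8-201 and Grm8-202 end in different stretches of 47 nt (chr6:27275648-27275694 and chr6:27285688-27285734, minus strand).
Grik1-202: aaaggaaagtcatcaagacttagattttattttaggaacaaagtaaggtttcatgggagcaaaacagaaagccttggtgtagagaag
Grik2-201: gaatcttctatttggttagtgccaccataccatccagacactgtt
Grik2-202: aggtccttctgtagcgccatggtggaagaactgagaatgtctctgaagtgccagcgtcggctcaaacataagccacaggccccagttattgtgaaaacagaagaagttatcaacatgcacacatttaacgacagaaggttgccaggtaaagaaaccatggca
Grm5-204: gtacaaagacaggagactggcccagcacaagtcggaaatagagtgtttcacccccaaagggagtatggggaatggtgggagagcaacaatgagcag
Grm8-201: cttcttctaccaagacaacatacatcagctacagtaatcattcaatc
Grm8-202: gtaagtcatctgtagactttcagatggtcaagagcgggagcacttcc

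The first question was whether the receptor genes carried more or fewer footprints, or more or less RNA, in DKO than in WT cultures. None of the 9 members was called in either assay at an adjusted p under 0.05 (edgeR quasi-likelihood test, Benjamini-Hochberg adjustment over 12898 genes tested). All 9 had passed the filter on low counts. The same test called 1 gene (0.00775% of those tested) in footprints and 2 (0.0155%) in RNA. At an unadjusted p under 0.05, 1 member, Grik3, passed in footprints and again in RNA, where 725 and 719 genes did. DESeq2 and limma-voom called no member either. The members' log2 fold changes, DKO over WT, had a median of 0.05 in footprints and -0.01 in RNA, and over all genes the medians were 0.00 and -0.00. The labels name the libraries only as replicates, so every p-value reflects the spread among them, which may be technical in part.

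**Figure D1:**
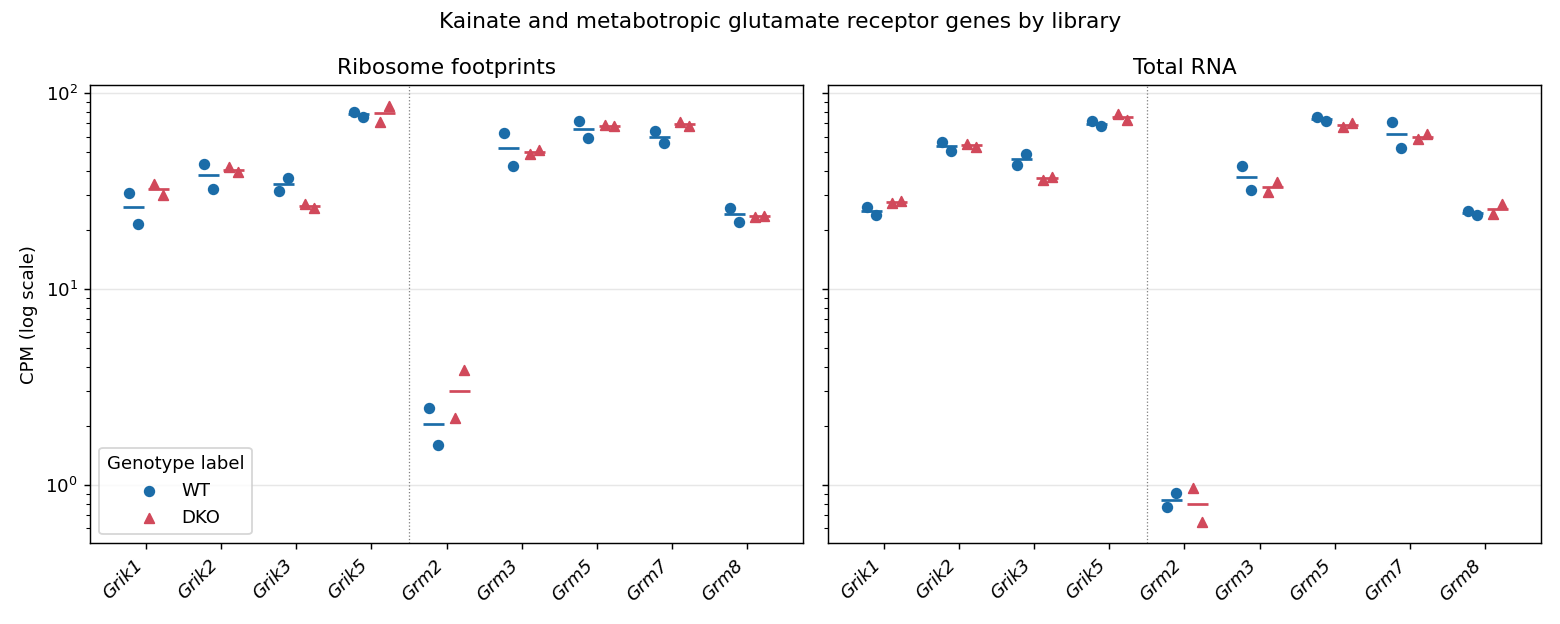
CPM (log axis) of each receptor gene in every library, footprints on the left and RNA on the right. Circles are WT and triangles DKO libraries, and short lines are means of 2 libraries. Grm2 lies far under the others, and Grik3 is the gene with both DKO libraries under both WT libraries in both assays.

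Among the kainate genes, Grik3 was the member whose DKO libraries lay lowest relative to WT. Grik3 (ENSMUSG00000001985, chr4:125490700-125714173, plus strand, GRCm38) encodes a channel-forming subunit of low glutamate affinity. Its footprints were 31.5 and 37.0 CPM in WT replicates 1 and 2, against 27.2 and 26.0 CPM in DKO replicates 1 and 2. Its RNA was 43.1 and 49.0 CPM in WT, against 35.8 and 37.5 CPM in DKO. Both DKO libraries lay below both WT libraries in both assays, as they did for 863 of all genes tested (6.69%). The log2 fold change was -0.36 ± 0.12 (SE) in footprints (adjusted p = 0.836, edgeR) and -0.33 ± 0.11 in RNA (adjusted p = 0.851). Without both libraries of WT replicate 2, the values were -0.25 in footprints and -0.24 in RNA.

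Marker sums of other cell types are given beside Grik3. The 7 oligodendrocyte-lineage markers in the table summed in RNA to 526 and 618 CPM for WT and 360 and 401 CPM for DKO, the same order of libraries as for Grik3 RNA. In footprints these sums were 524 and 711 CPM for WT, against 405 and 446 CPM for DKO. There the order of the DKO libraries was opposite to that of Grik3 footprints. All 7 of these markers had negative log2 fold changes in both assays, as did the 6 measured progenitor and radial glia markers and the 7 fibroblast and mural markers, with none called. In RNA the progenitor sums were 2387 and 2564 CPM in WT and 2075 and 2040 CPM in DKO. Most of each sum was Fabp7, with 2011 and 1996 CPM in WT and 1694 and 1643 CPM in DKO. Of the 6 markers, 2 had both DKO libraries below both WT libraries in RNA, against 18.9% of all genes. Vim RNA, for example, overlapped, at 233 and 382 CPM in WT and 243 and 254 CPM in DKO. The fibroblast and mural sums overlapped between genotypes: WT had 343 and 926 CPM and DKO 579 and 187 CPM in footprints, and WT had 198 and 521 CPM and DKO 258 and 93.2 CPM in RNA. The 8 astrocyte markers summed to 1235 and 1418 CPM for WT RNA and to 1074 and 1209 CPM for DKO RNA. Astrocyte footprint sums were 2007 and 2095 CPM for WT, against 1957 and 1890 CPM for DKO. The part of these cells in the Grik3 values was not tested. In such bulk cultures, fewer cells of a type and less RNA per cell cannot be told apart.

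Grik1 (ENSMUSG00000022935, chr16:87895900-88290265, minus strand) encodes a channel-forming subunit found in many interneurons. Its footprints were 30.9 and 21.5 CPM in WT and 34.1 and 30.3 CPM in DKO, and the groups overlapped. Its RNA was 26.3 and 23.9 CPM in WT and 27.4 and 28.2 CPM in DKO, with both DKO libraries above both WT libraries. The log2 fold changes were 0.29 ± 0.16 in footprints (adjusted p = 0.849, edgeR) and 0.15 ± 0.15 in RNA (adjusted p = 0.925). The footprint value rests on WT replicate 2, the lowest library: it was 0.05 without both libraries of that culture. Without both libraries of WT replicate 1, which leaves WT replicate 2 as the lone WT culture and assumes that it varies like the others, Grik1 was called (0.59, adjusted p = 0.0413, edgeR), along with 519 other genes in footprints.

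Grik2 (ENSMUSG00000056073, chr10:49094833-49788766, minus strand), the gene of a widely expressed channel-forming subunit, had footprints of 43.6 and 32.6 CPM in WT and 41.9 and 39.3 CPM in DKO. Its RNA was 56.4 and 50.7 CPM in WT and 55.2 and 53.4 CPM in DKO, so that DKO lay inside the WT range in both assays. Grik5 (ENSMUSG00000003378, chr7:25009849-25072346, minus strand), the high-affinity partner subunit, had footprints of 80.4 and 75.4 CPM in WT and 71.3 and 86.1 CPM in DKO. In RNA, Grik5 had 71.8 and 67.6 CPM in WT and 78.6 and 73.1 CPM in DKO, where DKO lay above WT without overlap. The log2 fold changes in footprints were 0.09 ± 0.13 for Grik2 (95% interval -0.20 to 0.37) and 0.02 ± 0.11 for Grik5 (95% interval -0.22 to 0.26). In RNA they were 0.02 ± 0.12 and 0.12 ± 0.11.

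Of the metabotropic genes, Grm5 (ENSMUSG00000049583, chr7:87584168-88134907, plus strand), the group I receptor that signals through phospholipase C, had footprints of 72.1 and 59.2 CPM in WT and 68.6 and 67.6 CPM in DKO. The DKO libraries lay between those of WT. Its RNA was 75.6 and 72.1 CPM in WT and 67.1 and 69.9 CPM in DKO, DKO below WT without overlap. The log2 fold changes were 0.05 ± 0.11 in footprints and -0.11 ± 0.10 in RNA (adjusted p = 0.956 and 0.920, edgeR). The RNA value stayed negative in every leave-out of a library or culture, between -0.15 and -0.03.

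The group II genes differed widely in level. Grm3 (ENSMUSG00000003974, chr5:9485541-9725170, minus strand) had footprints of 62.6 and 42.5 CPM in WT and 49.0 and 51.1 CPM in DKO, and RNA of 42.4 and 32.0 CPM in WT and 31.3 and 35.2 CPM in DKO. In both assays the WT cultures lay further apart than the DKO cultures. The log2 fold changes were -0.07 ± 0.19 in footprints and -0.16 ± 0.19 in RNA. Grm2 (ENSMUSG00000023192, chr9:106643095-106656082, minus strand), a presynaptic autoreceptor gene, had footprints of 2.48 and 1.60 CPM in WT and 2.19 and 3.84 CPM in DKO. Its RNA was at or below 0.963 CPM in every library, 11 to 47 counts in all, so that a difference of the size of the others could not be detected at this depth. The log2 fold changes of Grm2 were 0.58 ± 0.39 in footprints (95% interval -0.27 to 1.44) and -0.01 ± 0.44 in RNA. The footprint value was 0.09 without the DKO replicate 2 footprints and 0.32 without those of WT replicate 2, and 0.96 and 0.90 without the replicate 1 footprints of WT and of DKO.

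The group III genes are those of presynaptic receptors, of which the product of Grm7 sits at the release site and has low glutamate affinity. Grm7 (ENSMUSG00000056755, chr6:110645581-111567230, plus strand) had footprints of 64.0 and 55.6 CPM in WT and 70.9 and 67.6 CPM in DKO, with DKO above WT. Its RNA was 71.3 and 52.4 CPM in WT and 58.2 and 61.8 CPM in DKO, inside the WT range. Grm8 (ENSMUSG00000024211, chr6:27275119-28135178, minus strand) had footprints of 26.0 and 22.0 CPM in WT and 23.3 and 23.6 CPM in DKO. Its RNA was 24.9 and 23.8 CPM in WT and 24.1 and 27.2 CPM in DKO. The log2 fold changes in footprints were 0.21 ± 0.14 for Grm7 (adjusted p = 0.857, edgeR) and -0.04 ± 0.12 for Grm8 (adjusted p = 0.980). For Grm7 it was 0.11 without the WT replicate 2 footprints and 0.32 without the WT replicate 1 footprints.

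**Figure D2:**
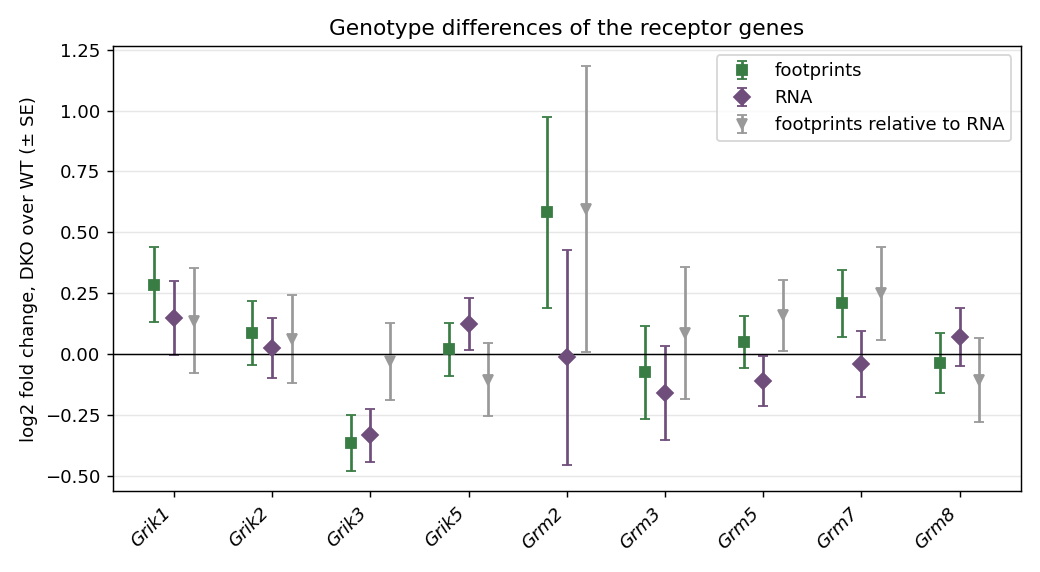
Log2 fold change of each receptor gene, DKO over WT, with bars of ± 1 SE from the edgeR fit, for footprints (squares), RNA (diamonds) and footprints relative to RNA (triangles). Grik3 lies below 0 in footprints (-0.36) and RNA (-0.33), and no member was called.

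Groups that did not overlap were about as frequent among the members as among all genes. In footprints 1 member, Grm7, had both DKO libraries above both WT libraries, and 16.3% of all genes did. In the opposite direction Grik3 was the 1 member, against 16.2% of all genes. In RNA 2 members (Grik1 and Grik5) lay higher in DKO, against 19.6% of all genes, and 2 (Grik3 and Grm5) lay lower, against 18.9%. WT replicate 2 was the lowest footprint library for 7 of the 9 members, all but Grik3 and Grik5, while this held for 36.1% of all genes. In RNA it was the lowest for 5 of 9, against 31.3% of all genes. Pan-neuronal marker sums were lowest in WT replicate 2 among the footprint libraries (5967 CPM, others 6520 to 7177), but among the RNA libraries DKO replicate 1 was lowest (3391 CPM), with WT replicate 2 at 3498 CPM. The part of cell makeup in the members' low values there was not tested.

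Footprints relative to RNA, here called translational efficiency, were compared between genotypes by an interaction contrast in the same fit. No member was called, and no gene of the 12898 was (0.0%, edgeR), with 110 genes and none of the members at an unadjusted p under 0.05. DESeq2 called 1 gene and limma-voom 0 in all, neither calling a member. The members' differences ran from -0.11 to 0.60 (log2, DKO minus WT). For Grm7, log2 footprints over RNA was -0.16 and 0.08 in the WT cultures and 0.29 and 0.13 in the DKO cultures, a difference of 0.25 ± 0.19 that was -0.03 without the WT replicate 1 RNA. Grm5 had -0.07 and -0.28 in WT and 0.03 and -0.05 in DKO, a difference of 0.16 ± 0.15. That of Grm5 was 0.03 without the WT replicate 2 footprints and 0.32 without the WT replicate 1 footprints. In both genes DKO lay above WT without overlap, as in 13.8% of all genes. For Grik3 the difference was -0.03 ± 0.16, since its footprint and RNA differences were of like size. The largest estimate, 0.60 for Grm2, had an SE of 0.59.

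A further comparison asked how the footprints of each receptor gene stood relative to its RNA within a genotype, not scaled to length. In this quantity 0 stands close to the typical gene. In WT, 4 of 9 members were called, 2 higher and 2 lower in footprints (edgeR, adjusted p under 0.05). Of all genes, 31.4% were called higher and 33.8% lower in WT, so that the members' share lies below that background. In DKO the same 4 members were called in the same directions, against 32.1% and 33.3% of all genes. Both comparisons contrast different libraries, but they come from the same fit, in which all groups share a single estimate of the spread. The calls in WT and DKO are therefore not independent, and the cultures also share a protocol and a line.

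**Figure D3:**
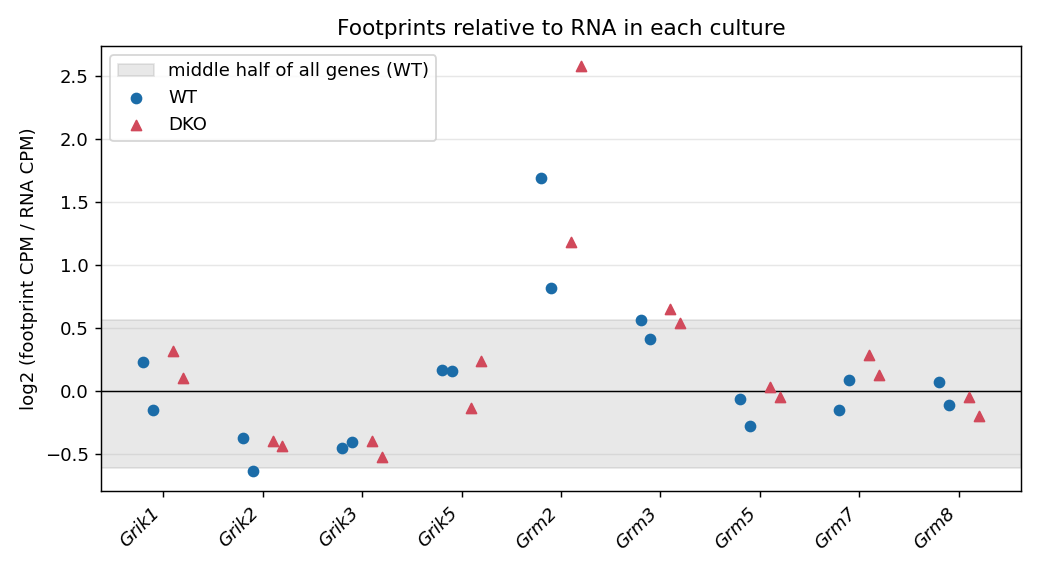
Log2 ratio of footprint CPM to RNA CPM for each receptor gene in the 2 WT (circles) and 2 DKO (triangles) cultures. The grey band spans the middle 50% of all genes in WT (-0.61 to 0.56). Grm2 and Grm3 lie above 0 and Grik2 and Grik3 below 0 in all 4 cultures.

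Grm2 and Grm3, the group II genes, had more footprints than their RNA share. For Grm2 the log2 ratio was 1.69 and 0.82 in WT and 1.18 and 2.58 in DKO, and the fitted values were 1.28 ± 0.43 in WT (adjusted p = 0.0197, edgeR) and 1.87 ± 0.40 in DKO (adjusted p = 0.0015). These rest on 21 to 65 footprint and 11 to 47 RNA counts per library, and the table held 3 of the 4 annotated isoforms, the longest not among the sums used here. For Grm3 the ratio was 0.56 and 0.41 in WT and 0.65 and 0.54 in DKO, with fitted values of 0.51 ± 0.19 (adjusted p = 0.0438, edgeR) and 0.60 ± 0.19 (adjusted p = 0.0239). All 4 cultures were above 0 for both genes. The call of Grm3 in WT was lost when any of 6 of the 8 libraries was left out, with values from 0.20 (without the WT replicate 1 footprints) to 0.53. The call of Grm2 in WT was lost without any of 3 libraries, the lowest value being 0.91 without the WT replicate 1 footprints (adjusted p = 0.156, edgeR). In DKO the call of Grm2 was lost without both libraries of DKO replicate 2 (1.18, adjusted p = 0.197). The call of Grm3 in DKO was lost without any of the 4 DKO libraries, with values from 0.51 to 0.66.

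Grik2 and Grik3 had fewer footprints than their RNA share. For Grik2 the log2 ratio was -0.37 and -0.64 in WT and -0.40 and -0.44 in DKO, with fitted values of -0.49 ± 0.13 (adjusted p = 0.00552, edgeR) and -0.42 ± 0.13 (adjusted p = 0.012). For Grik3 it was -0.45 and -0.41 in WT and -0.40 and -0.53 in DKO, with fitted values of -0.43 ± 0.11 (adjusted p = 0.00447, edgeR) and -0.46 ± 0.11 (adjusted p = 0.0034). All 4 cultures were below 0 for both genes. Without the WT replicate 2 footprints the Grik2 value in WT was -0.28 (adjusted p = 0.0554), and without the WT replicate 2 RNA the Grik3 value in WT was -0.33 (adjusted p = 0.0654). In DKO the Grik2 call was lost without the DKO replicate 2 footprints (-0.36) or the DKO replicate 1 RNA (-0.39). The Grik2 call was also lost without both libraries of DKO replicate 1 (-0.43) or of DKO replicate 2 (-0.40). For Grik3 the call in DKO was lost without both DKO replicate 2 libraries (-0.40). The other members, Grik1, Grik5, Grm5, Grm7 and Grm8, had fitted values from -0.17 to 0.16 in WT and from -0.12 to 0.21 in DKO and were not called. Grm5 was called lower in WT without the WT replicate 1 footprints (-0.32, adjusted p = 0.0256, edgeR), and Grm7 was called higher in DKO without both libraries of WT replicate 1 (0.24, adjusted p = 0.0316).

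Transcript architecture differed among these genes, and footprints fall on coding sequence while RNA reads fall on the whole transcript. The coding part made up 30.7% of the Grik3 RNA, whose annotated 3′ UTR has 6082 nt, against 86.5% for Grm3 and a median of 53.5% over 12762 genes with a coding isoform. When footprints were taken per coding length and RNA per isoform length, the WT ratio of Grik3 stood 0.28 (log2) above the median gene and that of Grm3 0.28 below it, so that both changed side. Grik2 then lay 1.02 below and Grm2 0.51 above the median gene, and Grm5 moved to 1.05 below it, the 14.4th percentile. Length scaling has its own limit for Grik2 and Grm5, since Grik2-201 and Grm5-201 are annotated without UTRs beyond the 3 nt of the stop codon. Across genes, the coding share and the unscaled ratio had a Spearman rho of 0.22, and genes are not independent replicates.

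The sequence around the start codon is shown for the called members with an annotated 5′ UTR, because ribosomes are recruited through that region. Each run has 10 bases before the ATG, in capitals, and 10 after it.
Grik3: gcgcccaacgATGaccgctccct
Grm2: ttggggggccATGgaatccctgc
Grm3: accaggattcATGaagatgttga
The base 3 before the ATG was A in Grik3, G in Grm2 and T in Grm3, and the base after the ATG was A, G and A. The annotated 5′ UTRs of the main isoforms were 131 nt long in Grik3, 193 nt in Grm2 and 182 nt in Grm3, holding 0, 0 and 1 upstream ATG. Grik1-202 (556 nt) and Grm8-202 (548 nt), the main isoforms in RNA, had the longest, with 6 and 7 upstream ATGs. In footprints, however, Grik1-202 took 24.2% to 74.4% of the Grik1 counts and Grm8-202 8.44% to 17.2% of the Grm8 counts. The part of start context and upstream ATGs in the footprint values was not tested. The sequences of Grik2 and Grm5 start at the ATG in this annotation.

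The isoform shares, which are estimates that kallisto made from short reads, were then compared as a description with no test. Grik1-202, the form with the 87-nt exon shown above, took 83.0% and 77.9% of the Grik1 RNA counts in the WT cultures, against 65.6% and 60.2% in the DKO cultures. The lower bound of WT replicate 2 (74.4%) lay above the upper bound of DKO replicate 1 (68.1%, 95% Wilson intervals, which cover counting error only). The groups were 12.3 percentage points apart at their nearest, a gap reached by 88 of 8265 isoforms (1.06%) with a mean share of 10% to 90% in genes of at least 400 RNA counts per library. The lowest Grik1 RNA count, 412, was close to that minimum, so the 1.06% does not describe genes of like depth. Isoforms of the same gene also entered it separately. Grik1-202 was singled out after its values were seen, and 2 libraries against 2 allow no exact permutation p below 0.333. In footprints the share was 35.9% and 51.4% in WT and 74.4% and 24.2% in DKO, with the DKO libraries at both extremes.

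The 2 Grik2 isoforms were divided differently in the 2 assays. Grik2-201, with the shorter ending, took 82.9% to 93.1% of the Grik2 footprints but 8.29% to 28.5% of the RNA counts, and Grik2-202 took the rest. Grik2-202 carries 1265 nt of annotated 3′ UTR and Grik2-201 none, and the part of this annotation in the split was not tested. Grm8 showed the same split, Grm8-201 with 77.2% to 86.1% of footprints and 4.63% to 17.9% of RNA, and Grm8-202 with 8.44% to 17.2% and 69.6% to 88.4%. In Grm5, the form with the 96-nt exon took 39.3% to 42.9% of RNA counts and 1.82% to 3.60% of footprints. Grm5-201 lacks annotated UTRs, and Grm5-204 has 891 nt that are not coding. Such assay differences were seen in all 8 libraries and did not separate the genotypes, except that the Grm5-204 share of RNA was 42.9% and 41.4% in WT and 40.7% and 39.3% in DKO, with overlapping 95% Wilson intervals. Grm7-202 took 88.6% to 99.5% of the Grm7 counts in every library, and Grik3, Grik5 and Grm3 had 1 isoform each in the table.

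**Figure D4:**
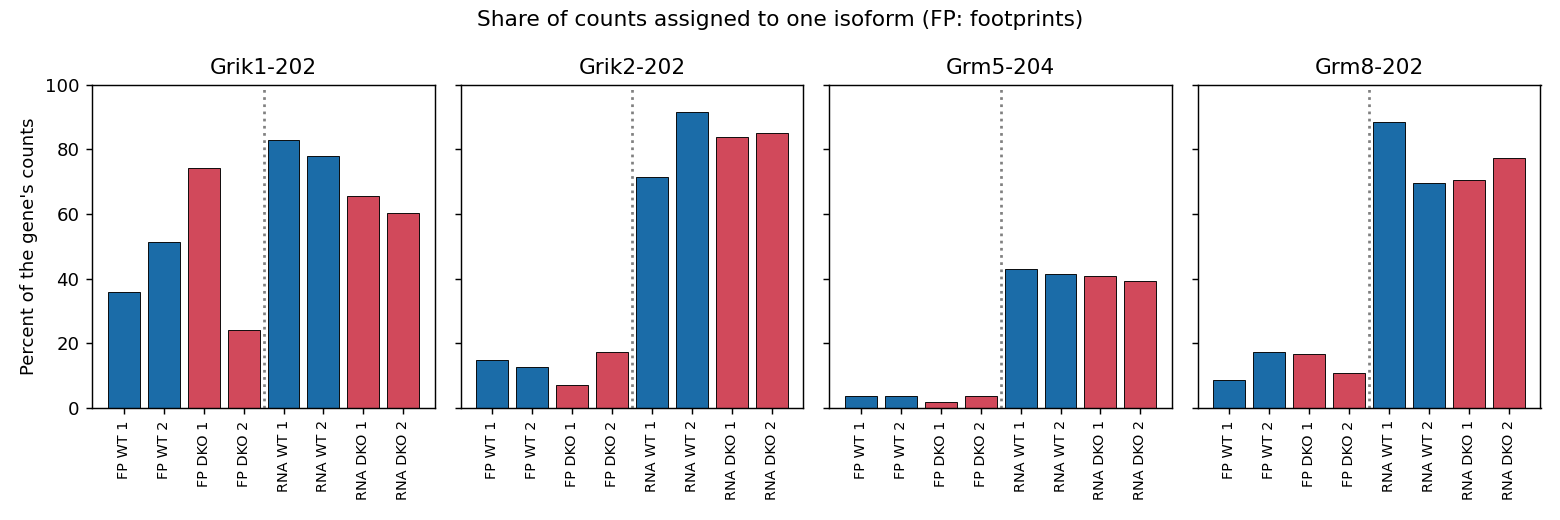
Share of a gene's estimated counts assigned to Grik1-202, Grik2-202, Grm5-204 and Grm8-202 in each library, WT in blue and DKO in red, footprints (FP) left and RNA right of the dotted line. Grik1-202 stands at 77.9% or more in WT RNA and at 65.6% or less in DKO RNA. The other isoforms differ mainly between the assays.

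Levels between genes were compared per kb, RNA over the mean isoform length weighted by counts and footprints over the longest coding length. Over the 4 RNA libraries, Grik5 had the highest level at 19.3 ± 1.20 CPM per kb (SD, n = 4), followed by Grm5 (18.2 ± 0.92), Grm7 (14.7 ± 1.91), Grik2 (14.3 ± 0.66) and Grm3 (11.6 ± 1.66), with neighbours overlapping in range. After a gap came Grik1 (7.30 ± 0.52) and Grm8 (6.64 ± 0.41), which overlapped, then Grik3 (4.61 ± 0.67) and far below it Grm2 (0.396 ± 0.070), each without overlap with the gene before. In footprints the order was Grik5 (26.7 ± 2.18), Grm7 (23.5 ± 2.40), Grm3 (19.5 ± 3.18), Grm5 (18.5 ± 1.51), then after a gap Grik2 (14.4 ± 1.78), Grik3 (11 ± 1.81), Grik1 (10.4 ± 1.93) and Grm8 (8.72 ± 0.61), and last Grm2 (1.42 ± 0.53). Within these runs neighbours overlapped. Among the WT means alone, where Grm5 (18.9) lay just above Grik5 (18.5) in RNA, taking the longest annotated transcript as the length changed the rank of 4 members in RNA and of 6 in footprints.

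The AMPA subunit genes Gria1, Gria2 and Gria4, of the main fast glutamate receptors, had WT RNA levels of 26.5 to 62.9 CPM per kb, above the 18.9 ± 0.63 (SD, n = 2) of Grm5, the highest WT mean of the members. Gria3 (12.7 ± 0.51) and the obligatory NMDA subunit Grin1 (14.2 ± 1.35) fell among the members. In footprints, Grin1 reached 61.8 ± 9.88 CPM per kb in WT against 26.5 ± 1.21 for Grik5. Not scaled to length, the log2 ratio of footprints to RNA of Grin1 was 1.68 ± 0.14 in WT (adjusted p = 9.54e-07, edgeR), at the 96.9th percentile of all genes. Among the members Grm2 alone passed the 90th (93.3), with 12 and 22 RNA counts in WT. Scaled to length, Grin1 stood at the 86.5th percentile in WT and Grm2 at the 69.5th.

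**Figure D5:**
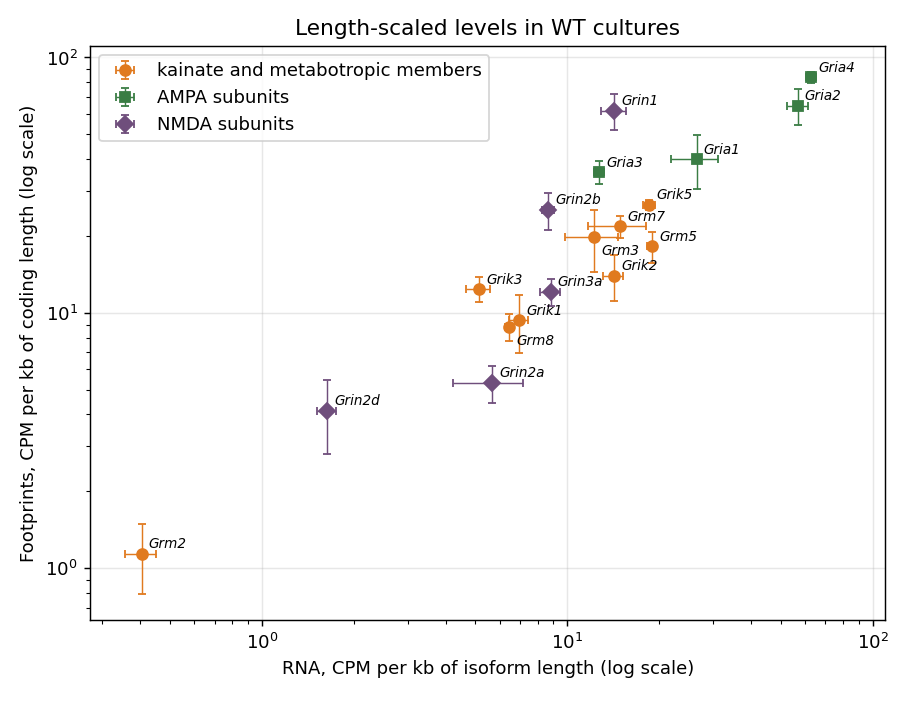
Length-scaled levels in WT, RNA on the horizontal and footprints on the vertical axis (both log scales), as means with SD bars over 2 libraries, for the members, the AMPA and the NMDA subunit genes. Gria1, Gria2 and Gria4 lie above the members on both axes, and Grin1 lies above the members of like RNA level in footprints. Grin2b was scaled to a coding length of 1011 nt, and the coding length of Grin2a (4392 nt) exceeds its RNA length (4161 nt). The places of Grin2a and Grin2b therefore depend on the annotated isoforms counted.

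Among the other genes of these receptor families and kainate auxiliary subunits, 5 of 6 were tested and none was called between genotypes. Of all genes, 0.00775% were called in footprints and 0.0155% in RNA. Grm6, a receptor of retinal bipolar cells, had at most 2 counts per library. Grik4, the other high-affinity kainate subunit, had footprints of 21.0 and 20.4 CPM in WT and 21.5 and 26.0 CPM in DKO, a log2 difference of 0.21 ± 0.12 (adjusted p = 0.852, edgeR). For Neto2, an auxiliary subunit that slows kainate channel kinetics, the value was -0.10 ± 0.11. In WT, footprints relative to RNA were called in 3 of these 5 genes: Neto2 was lower (-1.79 ± 0.11), and Grm4, a group III receptor gene, and Neto1 were higher (0.73 ± 0.12 and 0.35 ± 0.13), where 31.4% of all genes were called higher and 33.8% lower. Scaled to length, Grm4 stood at -0.14 (log2) from the median gene, on the other side of it, Neto1 at 1.75 and Neto2 at -1.03. Neto2 had 298 and 270 CPM in WT RNA but 87.5 and 76.1 CPM in WT footprints.

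The signalling partners showed no call between genotypes either. Over all 12898 genes 1 was called in footprints (0.00775%) and 2 in RNA (0.0155%), so 0 calls in a list say little about its genes. Of 21 group I signalling and scaffold genes tested, 0 were called in footprints or RNA, with medians of 0.05 and 0.01 (log2, DKO over WT). The smallest p in footprints belonged to Shank2 (0.39 ± 0.11, adjusted p = 0.836, edgeR), a scaffold of the postsynaptic density, and Homer1 (0.29 ± 0.10), which ties Grm5 protein to it. Of 23 genes of group II and III signalling, none was called (medians 0.05 and 0.01), and Rgs4, which speeds the shut-off of G proteins, and the G-protein subunit gene Gng3 came first with 0.30 ± 0.14 and 0.23 ± 0.11. Of the 9 tested trafficking partners of kainate receptors none was called (medians 0.03 and 0.06), with 0.19 ± 0.12 for Grip1 and 0.18 ± 0.13 for Dlg4, both scaffold genes.

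Of 10 tested genes of glutamate release and uptake, none was called in either assay (medians 0.11 in footprints and -0.02 in RNA). Slc17a8, a vesicular glutamate transporter gene, had -0.58 ± 0.27 and Slc1a3, the astrocytic uptake carrier, -0.35 ± 0.17 in footprints. None of the 4 AMPA and 5 tested NMDA subunit genes was called. Here too the share of all genes called was 0.00775% in footprints and 0.0155% in RNA. Their footprint medians were -0.00 and 0.16, and the smallest p values belonged to Gria1 (0.20 ± 0.16), Gria3 (-0.10 ± 0.11), Grin2b (0.21 ± 0.14) and Grin2d (0.22 ± 0.19).

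The genes whose pattern over the 8 libraries, centred within each assay, was most like that of the kainate and the metabotropic member of highest CPM, not scaled to length, were named as a description. For Grik5 these were Doc2b (Pearson r = 0.997), Srsf12 (0.992) and Gpr45 (0.990), among 11119 genes of at least 5 CPM. For Grm5 they were Tmx4 (0.992), Dsel (0.984) and Fh1 (0.978). Centred log2 CPM of Grik5 spanned only 0.27 and that of Grm5 only 0.28 over the libraries, which share depth and culture effects, so such values describe very small differences.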

How the data were processed

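The authors deposited a table of estimated counts for Ensembl transcripts, made with kallisto. FastQC, Trimmomatic and Bowtie were also used, per the submitters' processing notes, which name no versions. Build, transcript set and strand setting were not given in the sources used here. Of 60528 transcripts, 60444 (99.86%) matched GENCODE M21 (GRCm38). Counts, all whole numbers, were summed per gene. Reads shared by isoforms or similar genes were divided by kallisto, so isoform values are uncertain.

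A single quasi-likelihood model in edgeR 4.0.16 (R 4.3.3, limma 3.58.1) covered all 8 libraries, with 4 group means, TMM scaling and 4 residual degrees of freedom. Genes had to pass filterByExpr (minimum count 10) in both assays, which left 12898. Calls were Benjamini-Hochberg adjusted p under 0.05. Libraries from the same culture entered as independent. The procedure was tested on simulated data.

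Named genes were the 9 members, the targeted genes and, per gene list, the called genes or else the 2 of smallest footprint p, plus the 3 genes most like the kainate and the metabotropic member of highest CPM, unscaled (at least 5 CPM, log2 with prior count 2). Of the gene lists, 1 is not reported here. Members and lists were chosen with earlier results of these data known. Genes outside this rule that are named (such as Grin1, Neto1 and Grm4) were chosen after their values were seen.

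Footprint and RNA libraries of a culture were matched by the culture codes in the labels. For DKO replicate 2 the code is spelled differently in the label, the column header and the other assay, so that pair is uncertain. Deviations from the group means correlated between assays at 0.605 (WT) and 0.211 (DKO) across genes. The alternatives tried were TMM per assay, RLE scaling, other filters, DESeq2 1.42.0, limma-voom, protein-coding isoforms only, 1 assay alone, replicate blocks, and leaving out libraries or cultures.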

Additional observations from a re-analysis of the deposited data

How the results depend on the processing

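Of 913 values recomputed for single genes under the alternatives, 809 kept their direction and side of the threshold, 74 changed sign, 27 lost and 3 gained a call. Values that changed sign without a library being left out lay near 0: Grm2 in RNA (0.002 with RLE scaling, 0.108 with protein-coding isoforms only), and, for footprints relative to RNA, Grm7 in WT (0.013 with no filter, 0.046 with protein-coding isoforms), Grm8 in WT (0.008 with RLE scaling and with DESeq2, 0.042 with no filter, 0.069 with protein-coding isoforms) and Grm5 in DKO (0.005 with RLE scaling and with DESeq2, 0.037 with no filter). When a library or both libraries of a culture were left out, log2 differences between genotypes in footprints ran from -0.106 to 0.334 for Grik2, -0.123 to 0.149 for Grik5, -0.324 to 0.255 for Grm3, -0.085 to 0.218 for Grm5 and -0.15 to 0.112 for Grm8. In RNA they ran from -0.054 to 0.142 for Grik2, -0.384 to 0.224 for Grm2, -0.358 to 0.09 for Grm3, -0.252 to 0.234 for Grm7 and -0.015 to 0.174 for Grm8. In translational efficiency they ran from -0.098 to 0.436 for Grik1, -0.129 to 0.3 for Grik2, -0.14 to 0.087 for Grik3, -0.297 to 0.079 for Grik5, -0.098 to 1.291 for Grm2, -0.169 to 0.405 for Grm3, -0.031 to 0.449 for Grm7 and -0.219 to 0.032 for Grm8. For footprints relative to RNA the ranges were -0.221 to 0.314 for Grik1, -0.246 to 0.23 for Grm7 and -0.145 to 0.107 for Grm8 in WT, and -0.14 to 0.247 for Grik5 and -0.039 to 0.033 for Grm5 in DKO. The count of members called between genotypes was 0 under every alternative run in RNA and translational efficiency, and 0 to 1 in footprints, where Grik1 was called without both WT replicate 1 libraries. For footprints relative to RNA it ran from 1 to 4 in WT and from 0 to 5 in DKO as libraries or cultures were left out. Grm2 was not tested at a mean count of at least 50. Over all genes, footprints had 3 calls with no filter, 2 at a mean count of at least 50, 5 with DESeq2 and 0 to 520 with a library or culture left out. RNA had 6 with no filter, 13 with DESeq2, 1 with its libraries alone and 0 to 473 with a library or culture left out. Translational efficiency had 1 with DESeq2, 2 with protein-coding isoforms and 0 to 1 with a library or culture left out. The cause of these shifts was not tested. With the culture as a replicate block, translational efficiency had 0 calls (300 at an unadjusted p under 0.05), and footprints relative to RNA had 9450 in WT and 9461 in DKO, 4 of the members in each. WT and DKO cultures share only a number: with that replicate block 1 gene was called in footprints and 40 in RNA, none a member. Since same-numbered WT and DKO deviations correlated at -0.132 and -0.128, a replicate block with crossed numbers was added after seeing the data, with 13 and 4 genes called and no member. With the longest annotated transcript as length, 6 members changed rank among the WT means in footprints and 4 in RNA. Depth limits Grm2 most among the members, and 2 cultures per genotype limit all.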
